A study of Mus musculus with 6 samples.

Results

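The 8 genes described here encode a histone chaperone pair, a second chaperone and 4 histone variants, 1 of them from a pair of genes: Atrx, Daxx, Hira, H3f3a, H3f3b, H2afz, H2afx and H2afy. They were found by gene symbol among 49415 named genes with a valid status, and 7 of the 8 have a locus of their own in the tables. Hira shares its locus with 2 other gene names. The set was chosen by symbol with its FPKM values in these tables, the low Atrx values among them, already known. Every difference of a member is therefore a description and carries no test.

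The cells were mouse embryonic stem cells derived from blastocysts of strain C57BL/6J, with the genotype Mll1fl/fl; Cre-ER TM in every group. The 6 libraries form 3 groups of 2. Besides the untreated group, 1 group received 1α,25-dihydroxyvitamin D3 (VD3, the active hormone) at 1 µM over 5 days. The last group received VD3 at that dose plus MM-401 at 100 µM, again over 5 days. MM-401 blocks MLL1 (Kmt2a), a histone methyltransferase. All cells grew with leukemia inhibitory factor, in 15% serum or 20% serum replacement, on mouse fibroblast feeder cells. No tamoxifen treatment is given in the labels, and no group received MM-401 alone. The labels do not say whether the libraries of a group came from separate cultures beyond naming them biological duplicates.

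Nucleosomes are built mainly from histones made during DNA replication, and histone variants replace them at other times. ATRX, an ATPase of the SNF2 family encoded on the X chromosome, works with DAXX to place the variant H3.3 at repeats such as telomeres and pericentric heterochromatin, while the HIRA complex places H3.3 at active genes. H3f3a and H3f3b are separate genes that both encode H3.3. H2A.Z (H2afz) marks promoters, H2A.X (H2afx) is phosphorylated beside DNA breaks, and macroH2A1 (H2afy) carries a large non-histone domain and is enriched on silent chromatin.

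The deposited tables hold 1 pooled column per group in FPKM (fragment counts scaled for transcript length and sequencing depth), each with the authors' lower and upper bound, and a matching estimated count. The pools held between 62284600 and 73636300 estimated counts (6 significant digits). For the members the authors' variance gave a standard deviation of 16.5% to 27.3% of the count. No spread between libraries is available for any value below. The 8 embryonic stem cell markers checked were at 26.4 FPKM or more in every pool. Of 8 fibroblast markers, 1 or 2 reached 1 FPKM in a pool, and their summed level was 13.69 FPKM in untreated cells, 19.71 with VD3 and 11.01 with both agents. Their part in the results below was not tested. Thy1 was at 7.46, 13.8 and 9.41 FPKM and Col3a1 at 4.19, 3.93 and 0.553, which together make up most of that sum. Col1a1 stayed below 1 FPKM and Lum was listed at 0 in every pool. In bulk RNA, fewer cells that express a gene and less RNA per cell cannot be told apart.

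Reads from sequence shared by several genes can be placed in any of them, so the sequences of the members bear on their values. The H3.3 genes have coding sequences of 408 bases that translate to the same 136 residues and differ at 95 bases, 81 of them at the last position of a codon. The first 120 coding bases are shown with the differing bases in capitals (GENCODE vM21 on GRCm38, minus strand in both cases, chr1:180811807-180811926 and chr11:116023890-116024009):
H3f3a: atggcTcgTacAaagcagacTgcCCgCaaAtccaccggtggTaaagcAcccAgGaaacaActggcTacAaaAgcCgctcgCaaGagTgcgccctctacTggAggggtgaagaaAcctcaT
H3f3b: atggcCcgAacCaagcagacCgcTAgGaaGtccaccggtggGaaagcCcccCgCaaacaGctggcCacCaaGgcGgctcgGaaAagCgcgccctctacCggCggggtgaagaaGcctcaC
The longest stretch without a difference was 23 bases, so the coding parts of both genes can be told apart by a read longer than that.

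H2afz is in another position. Its whole coding sequence of 384 bases is repeated without a difference in Gm8203, a processed pseudogene (an intronless copy) that lies on chromosome 6 inside Tmcc1. The first 120 bases are the same in both, shown once because a read from here fits both places (plus strand of chr6:116173737-116173856 for Gm8203):
H2afz and Gm8203: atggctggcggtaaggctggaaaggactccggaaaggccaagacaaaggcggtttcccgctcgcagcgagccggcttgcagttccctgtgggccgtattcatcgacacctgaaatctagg
Of the 1020 windows of 50 bases in the longest H2afz coding transcript, 69.6% also occur in a transcript of another gene. The share was 30.3% for H3f3a, 8.40% for H3f3b, 9.66% for H2afx and 8.76% for H2afy. For Atrx and Daxx it was 0 of 10226 and 0 of 2624 windows. For Hira it was 64.4%, all in Gm28539, a gene of the same locus. Read length is not given in the sources used here, and 50 bases was taken as an example.

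Atrx (chromosome X, 105797615 to 105929403, minus strand) had the lowest level of the set after VD3 and one of the higher levels before it. It stood at 162 FPKM in untreated cells (bounds given by the authors, 44.8 to 279), 9.65 with VD3 (2.95 to 16.3) and 14.8 with VD3 plus MM-401 (6.05 to 23.5). The estimated counts were 39132.5, 3008 and 2534. Both treated pools were low, and neither interval overlapped the untreated one. Among genes of at least 1 FPKM, Atrx was at percentile 93.9 of expression in untreated cells, at 39.4 with VD3 and at 48.4 with both agents.

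The FPKM of Atrx was lower than in untreated cells by 16.8-fold after VD3 and by 10.96-fold after both agents. The counts, before any scaling for depth, were lower by 13.01-fold and 15.4-fold. On the log2 scale of FPKM + 1, used for all differences below unless another is named, these are -3.94 and -3.37. The 2-fold rule used below asks for a difference of at least 2-fold on this scale with intervals apart, among genes of at least 5 FPKM in the higher pool. With VD3, 1 of 8 members passed it, Atrx as lower, beside 5.14% of all 10910 genes in either direction, 4.22% as lower and 0.926% as higher. With both agents 2 of 8 passed, Atrx as lower and H2afz as higher, beside 6.95% of 10969 genes in either direction, 2.69% as lower and 4.26% as higher. The median gene itself differed from untreated cells by 0.36 with VD3 and by 0.27 with both agents, a shift that depends on scaling. Centred on it, the share of higher genes among those passing was 6.02% in place of 18% with VD3, and 31.8% in place of 61.3% with both agents. Since the members were chosen with these differences in view, nothing is read from the counts. With estimated counts scaled by the median ratio of the pools and intervals of 2 SD, Atrx also passed as lower in both comparisons, with log2 differences of -4.04 and -4.21. By that count rule 10.5% of genes were lower and 0.119% higher with VD3, and 6.04% lower and 1.66% higher with both agents.

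**Figure D1:**
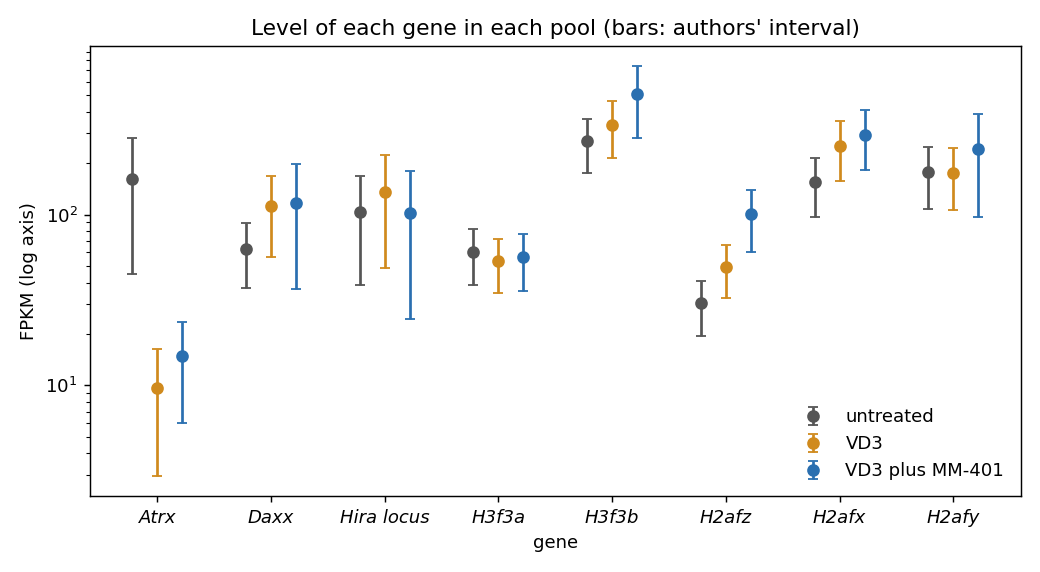
FPKM of each gene (log axis) in the pool of each of the 3 groups, 1 point per pool of 2 libraries, with bars for the authors' lower and upper bound. Atrx stands at 162 FPKM in the untreated pool and at 9.65 and 14.8 in the treated pools, with bars apart, H2afz stands at 30.2, 49.4 and 100.1 FPKM, and the bars of the other 6 overlap between pools.

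Transcript length and GC content moved with the differences over all genes, so a fit on both was set beside the Atrx values. Such a fit, made with Atrx among the genes, describes an association. Whether length or GC content caused any part of the Atrx difference was not tested. The longest coding Atrx transcript has 10275 bases and a GC content of 39.5%, longer than 98.3% and poorer in GC than all but 3.32% of 8351 protein-coding genes, whose medians are 3036 bases and 50.2%. A smooth fit of the difference on GC content and length over those genes gave an expected value of -1.45 for Atrx with VD3 and -1.11 with both agents. The part beyond the fit was -2.49 and -2.26. With VD3, Atrx ranked 48 from the lowest among all 10910 genes, 1 among the 8351 protein-coding genes and 4 among these after adjustment. With both agents it ranked 69 of 10969, 2 of 8382 protein-coding genes and 10 after adjustment. After adjustment Atrx was still lower by at least 2-fold in both comparisons. The fit was not applied to the intervals, so whether they stay apart after adjustment was not tested. With the unadjusted intervals, 1.03% and 0.74% of protein-coding genes passed as lower and 0.12% and 0.453% as higher.

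**Figure D2:**
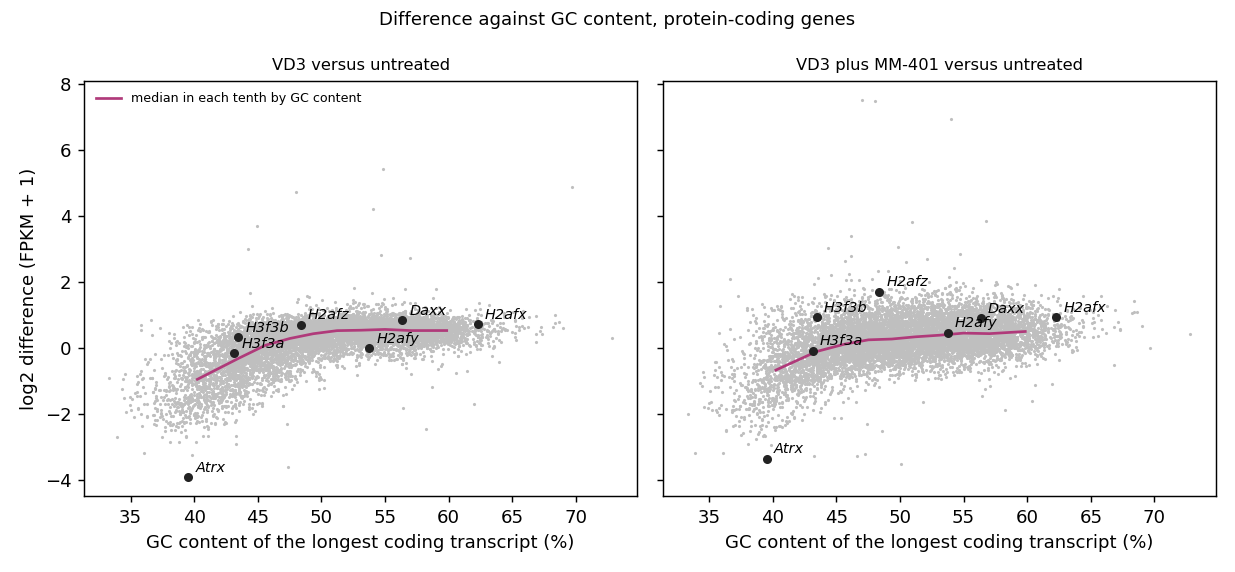
Log2 difference (FPKM + 1) against the GC content of the longest coding transcript for protein-coding genes of at least 5 FPKM, with VD3 (left) and VD3 plus MM-401 (right) against untreated; the line joins medians of equal-sized bins of GC content and black points are members, Hira left out because its locus holds several genes. Atrx, at 39.5% GC, lies at -3.94 and -3.37, below the falling left end of the line, and the other members lie near or above it, except H2afy with VD3 at -0.02.

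The upstream sequence of Atrx is shown because the added hormone acts through a nuclear receptor, whose sites are pairs of half-sites such as AGGTCA or AGTTCA in the same direction with 3 bases between them. The bases before the outermost annotated start are, from RefSeq (GRCm38.p6, minus strand, chrX:105929404-105929622), with the half-sites on either strand in capitals:
Atrx: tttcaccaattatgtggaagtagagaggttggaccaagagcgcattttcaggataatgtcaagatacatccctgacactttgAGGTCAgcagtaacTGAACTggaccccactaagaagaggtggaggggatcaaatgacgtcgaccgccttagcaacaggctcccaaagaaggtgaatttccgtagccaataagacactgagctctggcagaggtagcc
Over 250 upstream bases of all 32851 RefSeq promoters, AGGTCA on either strand was found in 14.0% and AGTTCA in 11.8%. The paired form of AGGTCA was in 0.00609%, and in none of the promoters matched to 7 of the 8 members. Among the promoters matched, Atrx alone held either half-site. Such matches describe letters only. Upstream GC content was 48.4% for Atrx, 54.0% for H3f3b and between 67.2% and 77.2% for the other members matched.

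Daxx (chromosome 17, 33909414 to 33915590), the partner of ATRX that binds H3.3 directly, did not share the low values. It stood at 63.2 FPKM in untreated cells (37.1 to 89.2), 112 with VD3 (56.8 to 168) and 117 with VD3 plus MM-401 (36.5 to 198). The treated pools were higher, and the intervals overlapped. Log2 differences were 0.82 and 0.88 by FPKM, 0.46 and 0.62 relative to the median gene, 0.32 and 0.25 by scaled count and 0.28 and 0.49 after adjustment for GC content and length. The ratio of Atrx to Daxx, both per length, was 2.56 in untreated cells, 0.0860 with VD3 and 0.126 with both agents.

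The locus named for Hira, the H3.3 chaperone of active genes, also carries 2510002D24Rik and Gm28539, so its value is not that of Hira alone. It stood at 104 FPKM in untreated cells (38.9 to 168), 136 with VD3 (48.8 to 224) and 103 with VD3 plus MM-401 (24.6 to 181). All 3 intervals overlapped. The log2 differences from untreated cells were 0.39 and -0.01, or 0.03 and -0.28 relative to the median gene, and by scaled count the second was 0.04.

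Of the H3.3 genes, H3f3b had the higher level per length (chromosome 11, 116021912 to 116027962). It stood at 270.1 FPKM in untreated cells (176 to 364), 337 with VD3 (214 to 460) and 510.1 with VD3 plus MM-401 (283 to 737), with estimated counts of 33047.5, 38983 and 61999. The pool with both agents was highest and all intervals overlapped. Its log2 difference from untreated cells was 0.32 with VD3 and 0.91 with both agents. By scaled count the first was -0.10, so its sign depended on the scale, and the second was 0.64.

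H3f3a (chromosome 1, 180800832 to 180813943) stood at 60.4 FPKM (38.5 to 82.3), 53.3 (34.6 to 72.0) and 56.4 (35.6 to 77.3) in the same order of pools. Its values differed little, with log2 differences of -0.18 and -0.10 from untreated cells. The first was 0.12 after adjustment for GC content and length, so its sign depended on the scale. The share of H3f3b in the summed FPKM of both genes was 81.7%, 86.3% and 90.0%, pseudogenes not counted. Reads of H3f3a can also be placed in pseudogenes. Gm6421, a processed pseudogene on chromosome 13, matches the H3f3a coding sequence at 403 of 406 aligned bases and was listed with 3015, 3284 and 2882 estimated counts, close to the 3020, 2804 and 3026 of H3f3a itself. Summed with the 26 pseudogenes in the tables that share a 50-base window with it, H3f3a stood at 268 FPKM in untreated cells, 282 with VD3 and 259 with both agents. The log2 differences of that sum were 0.07 and -0.05, and -0.32 and -0.29 by scaled count. Summed with its own 2 pseudogenes, H3f3b stood at 410.4, 512 and 675 FPKM, with log2 differences of 0.32 and 0.72. By scaled count these were -0.09 and 0.61. That sum also takes in Fam19a3 and Gm43584, which share a locus with the pseudogene Gm6485. Gm6485 and the other pseudogene, Gm37486, match the H3f3b coding sequence at 85.0% and 85.75% of aligned bases.

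H2afz (chromosome 3, 137864487 to 137866922), which encodes H2A.Z, was the member furthest above its untreated level with both agents by the FPKM of its own locus. After adjustment for GC content and length H3f3b was further above it (0.85 against 0.80). Summed with pseudogenes, H2afz lay below H2afx, Daxx, H3f3b and H2afy by FPKM, and below H2afx and H3f3b by scaled count. It stood at 30.2 FPKM in untreated cells (19.5 to 41.0), 49.4 with VD3 (32.6 to 66.1) and 100.1 with VD3 plus MM-401 (60.6 to 140), with 2222, 3303 and 6530 estimated counts. The interval of the last pool lay above that of untreated cells and overlapped that of VD3. The log2 difference with both agents was 1.70, past the 2-fold rule. With VD3 alone it was 0.69, below it. By scaled count it was 1.29 with both agents, and after adjustment for GC content and length 0.80, below the 2-fold line.

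The pseudogene copy carried most of the counts that fit H2A.Z. Gm8203 was listed at 1028 FPKM in untreated cells (665 to 1391), 1579 with VD3 (1032 to 2126) and 1265 with VD3 plus MM-401 (814 to 1717), with 13459, 20683 and 16572 estimated counts. It was thus high in every pool, highest with VD3. H2afz held 14.1%, 13.8% and 28.3% of the counts summed over it and the 3 pseudogenes of shared sequence in the tables. The summed level was 1060, 1630 and 1366 FPKM, with log2 differences from untreated cells of 0.62 and 0.37 and overlapping intervals. On that sum, chosen after seeing the data, H2afz no longer passed the 2-fold rule with both agents. The difference between VD3 plus MM-401 and VD3 was 1.01 for its own locus and -0.25 for the sum by FPKM. By scaled count the sum differed by 0.02 there, so its sign depended on the scale, and from untreated cells by 0.27 and 0.29. How the reads were divided between the copies cannot be told from the tables.

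**Figure D3:**
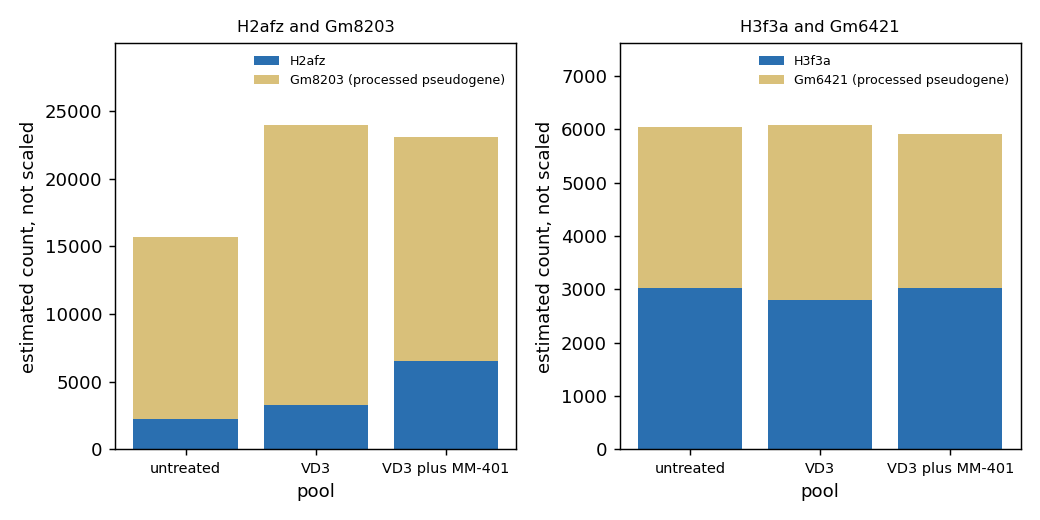
Estimated counts, not scaled for depth, of H2afz and its identical processed pseudogene Gm8203 (left) and of H3f3a and Gm6421 (right), stacked from 0 in each pool. H2afz holds 2222, 3303 and 6530 counts and Gm8203 13459, 20683 and 16572, and H3f3a and Gm6421 hold similar counts in every pool.

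H2afv, the second H2A.Z gene, stood at 201.5 FPKM in untreated cells (130.2 to 273), 286 with VD3 (186 to 386) and 415 with VD3 plus MM-401 (257 to 572). Its pools had the same order as those of H2afz, with overlapping intervals and log2 differences of 0.50 and 1.04. The locus of H2afz held 13.0%, 14.7% and 19.4% of the FPKM summed over both genes. That share does not count Gm8203.

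H2afx (chromosome 9, 44334694 to 44336077), which encodes H2A.X, stood at 156 FPKM in untreated cells (96.9 to 215), 254 with VD3 (156 to 351) and 294 with VD3 plus MM-401 (181 to 407). The treated pools were higher with overlapping intervals. The log2 differences were 0.70 and 0.91, and 0.09 and 0.05 after adjustment for GC content and length. At 62.3% GC this transcript is richer in GC than 98.6% of genes.

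H2afy (chromosome 13, 56073619 to 56136361), which encodes macroH2A1, stood at 178 FPKM in untreated cells (107 to 249.3), 176 with VD3 (106 to 246) and 243 with VD3 plus MM-401 (96.9 to 389). All 3 intervals overlapped. With VD3 the log2 difference from untreated cells was -0.02 by FPKM, -0.09 by scaled count and -0.63 after adjustment for GC content and length. With both agents it was 0.44, 0.02 and -0.09, so its sign depended on the scale. Its log2 difference between VD3 plus MM-401 and VD3 was 0.46 by FPKM and 0.11 by scaled count. H2afy2, the gene of macroH2A2, was at 14.0, 17.2 and 16.2 FPKM, and H2afy held 91.1% to 93.7% of the FPKM of both.

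Atrx moved from the third place among the 8 levels to the last. In untreated cells it was H3f3b, H2afy, Atrx, H2afx, the Hira locus, Daxx, H3f3a and H2afz, from high to low, and the intervals of all neighbours in this order overlapped. With VD3 it was H3f3b, H2afx, H2afy, the Hira locus, Daxx, H3f3a, H2afz and Atrx. With both agents it was H3f3b, H2afx, H2afy, Daxx, the Hira locus, H2afz, H3f3a and Atrx. Apart from Atrx, the orders differ by swaps of neighbours whose intervals overlapped. In both treated pools Atrx lay below its next neighbour with intervals apart, while every other pair of neighbours overlapped.

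VD3 plus MM-401 was also set against VD3 alone, which asks what the inhibitor adds. None of the 8 members passed the 2-fold rule (0 of 8), beside 1.37% of 10719 genes in either direction, 0.83% as higher and 0.541% as lower. By count the rule also took 0 of 8, beside 0.886% of genes as higher and 0.0746% as lower, and after adjustment 0.146% and 0.0609%. Log2 differences were 1.01 for H2afz, 0.60 for H3f3b, 0.57 for Atrx, 0.46 for H2afy, 0.21 for H2afx, 0.08 for H3f3a, 0.07 for Daxx and -0.40 for the Hira locus. For Atrx the sign depended on the scale, at -0.17 by scaled count. Its FPKM per count, relative to untreated cells and to the median locus, was 0.775 with VD3 (percentile 2.47 of 9781 genes) and 1.41 with both agents (percentile 93.8). The treated pools therefore have another order by FPKM than by count. Daxx (1.12 and 1.30) and the Hira locus (0.867 and 0.805) moved less by that measure.

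**Figure D4:**
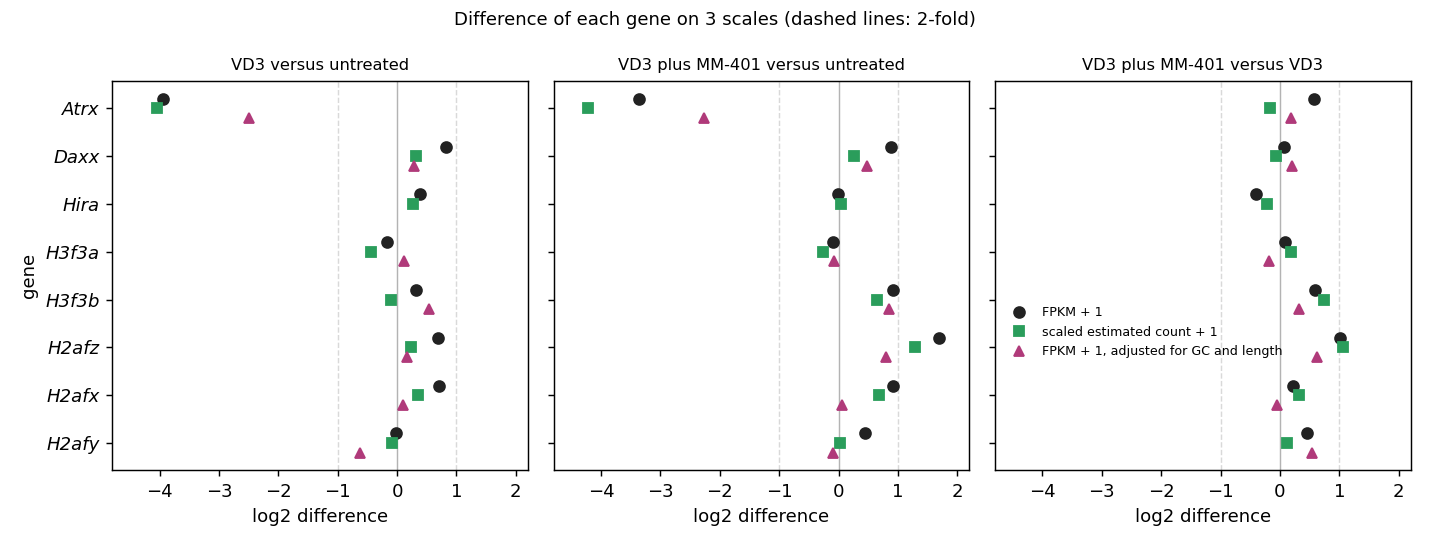
Log2 difference of each member in the 3 comparisons by FPKM + 1 (circles), by scaled estimated count + 1 (squares) and by FPKM + 1 adjusted for GC content and length (triangles, not available for Hira); dashed lines mark 2-fold. Atrx lies left of -2 on every scale in both comparisons with untreated cells, and H2afz lies at 1.70, 1.29 and 0.80 with both agents.

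Other histone variant genes were measured beside the members. The list of 15 histone variant and related histone genes, members included, had 12 above the minimum level in the comparison of VD3 with untreated cells. None passed the 2-fold rule there. Its median difference was 0.35, and that of all genes 0.36. With both agents the median was 0.90 against 0.27, and 10 of 12 lay above the median gene. H2afz alone passed, as higher, beside 4.26% of all genes. After adjustment for GC content and length the list's median there, members included, was 0.15. Without the members 7 genes were left, with a median of 0.89 before adjustment. Of these 7, 6 lay above the median gene and none passed. H2afj, an H2A variant gene, was at 33.4, 69.3 and 82.0 FPKM, and Cenpa, the centromeric H3 variant, at 191, 306 and 356, with overlapping intervals. H1f0, a linker histone of non-dividing cells, was at 31.0, 40.7 and 47.4 FPKM. H3f3c was listed at under 0.2 FPKM in every pool, and H2al2a at 0.

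Of the 10 genes on the list of the HIRA complex and H3.3 chaperones, all above the minimum level, Atrx and Dek were lower in both comparisons with untreated cells and none was higher. Over all genes 4.22% and 2.69% were lower, and 0.926% and 4.26% higher. Atrx was chosen with its values known, and without the members 1 of 7, Dek, was lower. Dek, a chromatin protein reported to chaperone H3.3, was at 340.2 FPKM in untreated cells (212 to 468), 71.0 with VD3 (43.9 to 98.2) and 87.2 with VD3 plus MM-401 (45.9 to 129). Both treated pools were low with intervals apart. Its log2 differences were -2.24 and -1.95, and -1.27 and -1.35 after adjustment. Of the HIRA partners, Ubn1 was at 7.82, 11.1 and 6.04 FPKM, Ubn2 at 5.57, 2.64 and 3.002 and Cabin1 at 33.1, 51.4 and 37.8, all with overlapping intervals. Asf1a and Asf1b, which hand H3 and H4 to other chaperones, were at 107, 119.5 and 188 FPKM and at 24.9, 42.7 and 43.5.

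H2A.Z deposition genes, of the SRCAP and EP400 complexes with the H2A.Z chaperone gene Anp32e, had 17 of 17 above the minimum level. None of the 17 passed the 2-fold rule in any comparison. Over all genes 5.14% passed with VD3, 6.95% with both agents and 1.37% between the treated pools, so few of 17 would be counted at those shares. The median difference of the 17 was 0.38 with VD3 and 0.27 with both agents, close to that of all genes. Epc2, of the EP400 complex, had the largest difference at 20.9, 6.70 and 8.78 FPKM, followed by Actr6, of the SRCAP complex, at 42.6, 20.1 and 19.1, with overlapping intervals.

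Among the CAF-1, FACT and other histone chaperone genes, Set passed the 2-fold rule as higher with both agents. Set, a chaperone and phosphatase inhibitor, was at 84.5, 89.7 and 181 FPKM. Supt16, a FACT subunit, was at 126, 65.8 and 63.8, its interval with both agents reaching from 0 to 129.

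ATRX and DAXX partners and heterochromatin genes stood below the median gene for the most part, with 2 of 14 above it for VD3. Their median difference was -0.05, and -0.23 after adjustment. With VD3, 1 of the 14 was lower, beside 4.22% of all genes. This was Morc3, an ATPase of PML bodies, at 48.8 FPKM in untreated cells (30.9 to 66.8), 18.9 with VD3 (12.1 to 25.7) and 29.3 with VD3 plus MM-401 (16.3 to 42.3). Smc3, a cohesin subunit, was at 121, 34.9 and 33.9 FPKM with overlapping intervals.

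The other SNF2-family ATPases allow Atrx to be set beside its relatives. Of 28 above the minimum level, 3 were lower with VD3 and none higher, beside 4.22% of all genes as lower, and 2 lay above the median gene. With both agents 1 of 28, Smarca1, was lower, beside 2.69% of all genes. With VD3 the median difference of the 28 was -0.40 by FPKM, -0.83 by scaled count and -0.26 after adjustment for GC content and length, the last over 21 genes. Hltf was at 22.03 FPKM in untreated cells, 6.60 with VD3 and 17.4 with both agents, Shprh at 15.9, 5.16 and 6.77, and Smarca1 at 7.16, 2.32 and 2.42. After adjustment these 3 were at -0.52, -0.38 and -0.16 with VD3. Hells, a heterochromatin remodeller, had the largest difference of the list, from 1506 to 281 and 351 FPKM, but its intervals overlapped. Chd9, the next, was at 24.6, 6.97 and 8.87 FPKM, with intervals that all began at 0. Atrx, at -3.94, had a larger difference than each of these 28 genes.

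**Figure D5:**
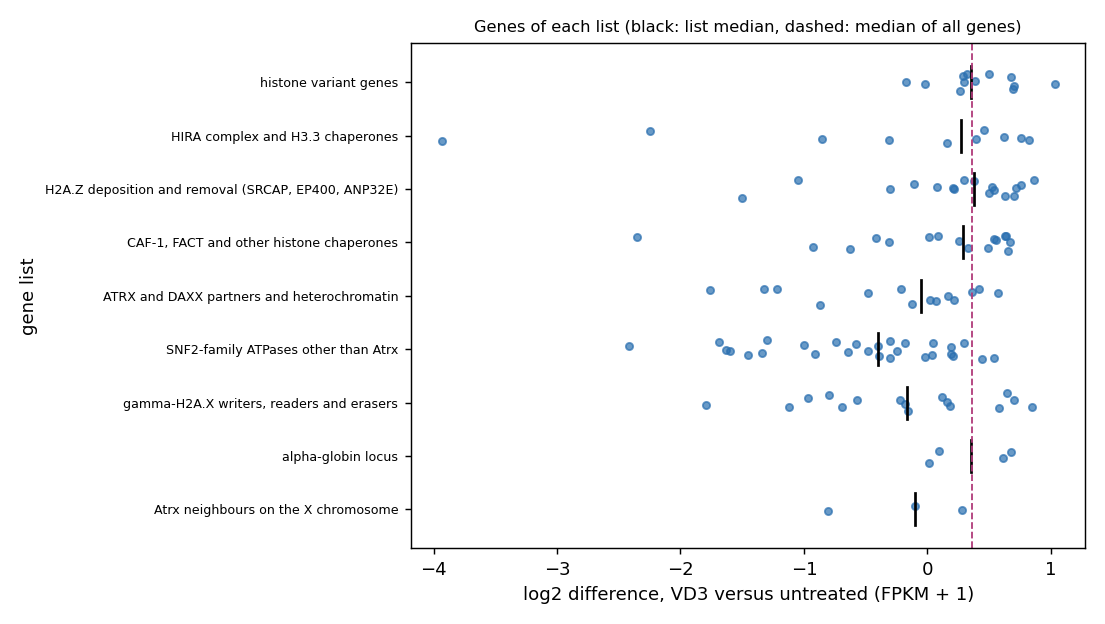
Log2 difference with VD3 against untreated (FPKM + 1) of the genes of each list above the minimum level, 1 point per gene, members included; the black bar is the list's median and the dashed line, at 0.36, the median of all genes. Atrx at -3.94 and Dek at -2.24 are the far left points of the list of H3.3 chaperones, and most SNF2-family ATPases lie left of the dashed line.

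Of 11 neighbours of Atrx measured on the X chromosome, 3 passed the minimum level, and none of these showed a difference of its size. Among the neighbours below that level, none was higher with VD3. Lpar4 was at 1.71, 0.403 and 0.402 FPKM, with both treated intervals apart from the untreated one, and Atp7a at 4.79, 2.42 and 3.07. The 3 that passed are given next. Magt1, the next gene measured, was at 11.1, 5.91 and 9.60 FPKM, Cox7b, a subunit of respiratory complex IV, at 679, 634 and 1199, and Pgk1, a glycolytic enzyme, at 12.9, 15.9 and 29.0. Pgk1, 1 of the 3, passed the 2-fold rule as higher with both agents, beside 4.26% of all genes. Over all 260 X-linked protein-coding genes the median difference with VD3 was 0.08, against 0.37 for 8087 autosomal genes, and 28 X-linked genes (10.8%) were lower and 3 higher, beside 288 lower (3.56%) and 49 higher autosomal genes. After adjustment for GC content and length the medians were -0.02 and 0.02.

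The genes whose profile over the 3 pools lay nearest to that of Atrx, by Euclidean distance of centred log2(FPKM + 1) among 8499 protein-coding genes, were Washc4 (distance 0.49), Ddx3y (0.56), Stag2 (0.77), Cenpf (0.81) and Trpm7 (0.82). Washc4, of the WASH complex, was at 35.5, 2.85 and 3.71 FPKM, and Stag2, a cohesin subunit, at 37.3, 4.31 and 4.004. These 5 transcripts have 36.1% to 43.3% GC and 4600 to 11130 bases. Nearest to H2afz were Ndufab1 (0.0075), Atp5e (0.033), Ndufa2 (0.051), Hk2 (0.053) and Rplp1 (0.061). Ndufab1, of respiratory complex I, was at 14.2, 23.7 and 48.3 FPKM. With 3 pools such distances describe these values and no more.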

How the data were processed

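RNA of 6 libraries in 3 groups was sequenced after TruSeq preparation, per the labels' protocols. The submitters' processing notes name Cufflinks 2.2.1, TopHat2 2.1.1, SAMtools 1.5 and the build mm10, without settings. The authors deposited FPKM with bounds, and estimated counts with a variance (used for SDs), in 1 pooled column per group. The untreated column (ESCfef) and the VD3 plus MM-401 column (VD3122) were assigned by the piece of the name found only in that group's titles; no label explains the remainder, and another meaning would change each comparison with them.

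The 14 loci without a valid status and 11771 unnamed loci were left out, and loci of the same name were summed. Differences are log2 ratios of FPKM + 1, which understates low genes; pooled columns allow no test. The median gene differed from untreated by 0.36 (VD3) and 0.27 (VD3 plus MM-401), and printed FPKM include that shift. Coordinates, GC content and length are from GENCODE vM21 (GRCm38, the sequence of mm10), for the longest coding transcript. The adjustment is a cubic spline regression (scikit-learn 1.9.0). It was tested on simulated data with a linear trend in GC content and no trend in length, so its length part was not tested. The adjustment was applied to the differences and not to the authors' intervals. Strandedness is not stated, so antisense and overlapping genes cannot be told apart.

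Members and gene lists were chosen with earlier results of these data known. Named genes are all members; list genes past the 2-fold rule in any comparison; the 2 largest differences of each list with VD3; paralogs, Atrx neighbours and the 5 nearest profiles. Some results under this rule are not reported here.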

Additional observations from a re-analysis of the deposited data

How the results depend on the processing

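No paired analysis was possible because each group has 1 pooled column, and for the same reason no replicate could be left out. Of the alternatives, 10 were run for each count, and 1 more, the sum with pseudogenes, was chosen after seeing the data. The lower call of Atrx was kept under all of them in both comparisons with untreated cells. Its differences went from -4.30 to -2.49 (VD3) and from -4.21 to -2.26 (VD3 plus MM-401). Under the adjustment for GC content and length the intervals were the unadjusted ones, so only the fold could change that call. Members counted in VD3 plus MM-401 versus untreated went from 2 to 1, losing H2afz, after adjustment for GC content and length (1) and when summed with pseudogenes (1). Against VD3, 1 member (H2afz) passed when only the fold was asked.

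Genes counted in all moved by more than 1.5 times under some settings. With VD3 against untreated the 561 became 1154 by estimated count, 96 after the adjustment, which tests protein-coding genes only, and 1334 whatever the intervals. With VD3 plus MM-401 against untreated the 762 became 100 and 2153 under the last pair of settings, and against VD3 the 147 became 17 and 720, and 72 with at least 100 counts. The share of counted genes that were higher depended on scaling. It was 18% with VD3, 6.02% when centred on the median gene and 1.13% by count, and with both agents against untreated 61.3%, 31.8% and 21.5%. Between VD3 plus MM-401 and VD3 it was 60.5% and 92.2% by count. The cause was not tested. The lowest member count in a pool was 2222 (H2afz, untreated), so depth limits these values less than the authors' variance of the counts.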

Other observations

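Genes that write, read or erase the phosphorylated form of H2A.X had 16 of 17 above the minimum level against untreated cells. Between VD3 plus MM-401 and VD3 it was 14. None passed the 2-fold rule in any comparison, beside 5.14% (VD3), 6.95% (both agents) and 1.37% (between treated pools) of all genes. The list's median log2 difference was -0.17 for VD3 and -0.44 for both agents, against 0.36 and 0.27 for all genes. After adjustment for GC content and length it was -0.04 and -0.33. Atr, a checkpoint kinase, was at 9.71 FPKM in untreated cells (3.62 to 15.8), 2.09 with VD3 (0 to 4.59) and 4.81 with both agents (0 to 16.0). Rad50, of the break-sensing MRN complex, was at 21.3, 9.28 and 13.0 FPKM with overlapping intervals. H2afx itself stood higher in both treated pools by FPKM.

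The alpha-globin locus, from which ATRX takes its name through alpha-thalassemia, had 4 of 10 genes above the minimum level. None of these passed the 2-fold rule, beside 5.14% (VD3), 6.95% (both agents) and 1.37% (between treated pools) of all genes. The 4 were Nprl3, Mpg, Rhbdf1 and Snrnp25. The globin genes themselves were listed at 0.326 FPKM or less in every pool. Mpg, a DNA repair glycosylase gene, was at 11.3, 18.6 and 14.9 FPKM, and Snrnp25, a minor spliceosome gene, at 44.96, 69.1 and 93.3. The median of the 4 was 0.35 with VD3, near that of all genes, and -0.27 after adjustment for GC content and length.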
